A study of Homo sapiens with 8 samples.

Results

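The zinc finger genes of human chromosome 19 were followed across 4 conditions of Hep3B cells, a human hepatocellular carcinoma line. A gene was taken as a member when its symbol was ZNF followed by digits and at most 1 letter and when its chromosome was given as 19. The rule used no measured level and found 234 of the 16169 genes of the series, of which 234 were listed for the knockout and 227 for the siRNA experiment. Of these, 228 are protein-coding in RefSeq and 6 carry the P of a pseudogene. Ordered by start, 72 lay on the p arm and 162 on the q arm, with the arms parted at position 26000000 of GRCh38. Members whose starts were less than 500 kb from the next were joined into a block, which gave 19 blocks, 11 of them with 5 members or more.

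The 4 conditions were Hep3B of wild-type genotype, Hep3B SOX4-/-, Hep3B transfected with control siRNA and Hep3B transfected with STAT6 siRNA, with 2 RNA-seq libraries each. SOX4 and STAT6 are transcription factors. The knockout cells had been made with CRISPR/Cas9 as 2 lines and were kept in puromycin, and the labels do not say which line a library came from. Nothing in the labels says that libraries 1 and 2 of a group are separate cultures, so the p-values measure the spread between these libraries, which may be technical.

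Most ZNF genes of chromosome 19 encode proteins with an array of zinc fingers that reads DNA and, at the amino end, a KRAB domain. This domain binds the corepressor TRIM28, which brings in the histone methyltransferase SETDB1 and heterochromatin proteins, and many of these factors silence transposable elements. The genes arose by tandem duplication, so neighbours in a cluster are often close relatives, and short reads from them can be assigned to the wrong copy. A block of neighbours that moves together and a lone gene that moves can therefore be read only with the shared reads in mind.

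Sequence shared by neighbours is visible in the promoters. The 250 bases before the start, from RefSeq on GRCh38.p14, are shown for ZNF486, whose level differed most clearly, for 5 relatives from the same stretch of the p arm and for 2 q arm members that also changed. This RefSeq start can differ from the gene start given with the counts. The windows of ZNF626, ZNF93, ZNF730 and ZNF737 run into the gene spans printed further below. Capitals mark CCAATCA on either strand.
ZNF486, chr19:20166964-20167213, plus strand: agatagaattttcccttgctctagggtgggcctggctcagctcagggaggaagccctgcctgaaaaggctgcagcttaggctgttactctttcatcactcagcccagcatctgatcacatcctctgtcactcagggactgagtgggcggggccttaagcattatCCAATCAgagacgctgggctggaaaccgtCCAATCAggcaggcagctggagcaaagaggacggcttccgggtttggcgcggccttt
ZNF626, chr19:20661572-20661821, minus strand: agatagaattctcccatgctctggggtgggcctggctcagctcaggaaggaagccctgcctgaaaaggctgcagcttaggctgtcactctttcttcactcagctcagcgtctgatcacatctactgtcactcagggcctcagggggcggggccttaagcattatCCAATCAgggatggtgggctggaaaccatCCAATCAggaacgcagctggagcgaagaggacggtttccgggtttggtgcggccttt
ZNF93, chr19:19900696-19900945, plus strand: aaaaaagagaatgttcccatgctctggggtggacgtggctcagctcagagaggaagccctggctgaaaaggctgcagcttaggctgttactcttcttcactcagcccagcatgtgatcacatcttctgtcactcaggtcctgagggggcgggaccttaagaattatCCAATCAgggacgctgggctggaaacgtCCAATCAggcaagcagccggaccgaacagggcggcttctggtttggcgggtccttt
ZNF682, chr19:20039506-20039755, minus strand: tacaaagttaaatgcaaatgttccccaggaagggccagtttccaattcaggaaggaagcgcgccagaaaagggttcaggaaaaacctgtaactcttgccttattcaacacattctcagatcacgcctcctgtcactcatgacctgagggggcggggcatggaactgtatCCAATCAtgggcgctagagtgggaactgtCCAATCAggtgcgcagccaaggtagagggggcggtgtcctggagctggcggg
ZNF730, chr19:23116775-23117024, plus strand: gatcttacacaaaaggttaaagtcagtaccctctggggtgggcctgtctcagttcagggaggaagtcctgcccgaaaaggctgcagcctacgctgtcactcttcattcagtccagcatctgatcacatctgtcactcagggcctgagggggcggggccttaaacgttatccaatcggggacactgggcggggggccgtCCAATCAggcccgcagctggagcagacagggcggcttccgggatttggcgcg
ZNF737, chr19:20565782-20566031, minus strand: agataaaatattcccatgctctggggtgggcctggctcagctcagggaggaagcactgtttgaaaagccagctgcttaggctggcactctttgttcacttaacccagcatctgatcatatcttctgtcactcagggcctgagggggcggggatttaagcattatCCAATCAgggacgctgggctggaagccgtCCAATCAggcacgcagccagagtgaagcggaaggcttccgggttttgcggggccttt
ZNF578, chr19:52453303-52453552, plus strand: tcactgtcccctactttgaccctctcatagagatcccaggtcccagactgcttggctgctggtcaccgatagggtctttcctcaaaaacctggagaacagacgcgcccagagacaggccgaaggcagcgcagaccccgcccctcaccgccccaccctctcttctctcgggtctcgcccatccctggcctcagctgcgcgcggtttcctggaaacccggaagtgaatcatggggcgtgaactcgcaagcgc
ZNF432, chr19:52048839-52049088, minus strand: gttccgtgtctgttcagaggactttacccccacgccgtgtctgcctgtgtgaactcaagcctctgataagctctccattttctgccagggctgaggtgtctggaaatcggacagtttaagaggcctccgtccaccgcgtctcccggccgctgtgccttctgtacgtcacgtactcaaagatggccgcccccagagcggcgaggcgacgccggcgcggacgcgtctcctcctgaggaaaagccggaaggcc

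Over these 250 bases the promoter of ZNF626 was 91.2% identical to that of ZNF486 in a global alignment, that of ZNF93 87.0%, that of ZNF737 86.8%, that of ZNF730 77.2% and that of ZNF682 64.8%. The q arm promoters of ZNF578 and ZNF432 were 48.0% and 50.7% identical to it. Across the block from ZNF101 to ZNF676, identity to ZNF486 had a median of 79.0% over 16 promoters, and over 179 promoters of other blocks, leaving out the block from ZNF730 to ZNF254, it had a median of 50.3%. CCAATCA, a motif picked after the sequences and levels had been seen, was present in 17 of 17 promoters of the ZNF101 to ZNF676 block and in 7 of 7 of the ZNF730 to ZNF254 block. It was present in 27 of 179 other member promoters (15.1%) and in 8.40% of 15842 protein-coding promoters.

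A further 3 motifs were searched on both strands in the same windows, each counted on its own where matches overlapped. GGGCGG stood in 13 of 17 promoters of the ZNF101 to ZNF676 block (76.5%), in 63.5% of all 203 member promoters and in 56.0% of protein-coding promoters. AACAAAG, a SOX-type motif, stood in 2.96% of member promoters and 3.52% of protein-coding promoters, and the spaced palindrome that STAT6 is known to bind in 5.91% and 4.48%. The shares of the last 2 motifs were small in the members and in all promoters alike, and an absent match says only that these letters are not in this window.

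Library totals ranged from 16266282 to 25353113 expected counts, that is, estimated reads per transcript that need not be whole. Levels are given as TMM-normalised CPM (counts scaled to a common library total) for each library. SOX4 itself was at 799 and 266 CPM in Hep3B and at 298 and 302 CPM in the knockout libraries (log2 fold change -0.83, adjusted p = 0.372), so its transcript level gives no check of the knockout label. STAT6 was at 42.5 and 31.4 CPM with control siRNA and at 9.92 and 5.98 CPM with STAT6 siRNA, without passing the test over all genes, and it was also at 32.0 and 13.2 CPM in Hep3B against 2.76 and 2.20 CPM in the knockout (log2 fold change -3.18, adjusted p = 0.0275). Of 11 hepatocyte markers 11 were in both tables, with ALB between 5095 and 28445 CPM. PTPRC, which marks leukocytes, was at most 0.227 CPM in the Hep3B and knockout libraries.

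In the knockout against Hep3B, chromosome 19 zinc finger genes were lower as a group. Among 223 tested members 192 showed a negative log2 fold change, and the median of the 223 was -0.94, while over all 14415 genes tested 49.6% were below 0 and the median was 0.01. The test called 10 members at an adjusted p below 0.05 (edgeR quasi-likelihood test, Benjamini-Hochberg over all genes), all of them lower, which is 4.48% of those tested where 1.39% of all genes were called lower and 5.89% in either direction. DESeq2 called 48, all lower, where it called 5.41% of all genes lower. The number rests on single libraries, as it was 72 without Hep3B library 1 (with 5.57% of all genes called lower), 1 without knockout library 1 and 0 without knockout library 2. Calls among all genes also fell when either knockout library was left out, so these drops were not particular to the members. The members' median log2 fold change stayed between -1.25 and -0.60 when 1 library was left out. At an unadjusted p below 0.05 there were 80 members, of which 79 were lower, where 26.0% of all genes passed it in either direction and 10.5% lower. Both knockout libraries were below both Hep3B libraries in 142 members (63.7%, against 27.4% of all genes) and above them in 7 (against 30.6% of all genes).

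The size of the shift differed between libraries of the same group. Between the libraries numbered 1 the members' median difference was -0.33 on the log2 scale, with 155 of 223 below 0, and between those numbered 2 it was -1.47, with 208 below 0. Summed over all members, the level was 3872 and 5376 CPM in Hep3B and 2776 and 2279 CPM in the knockout. The knockout sums were both below the Hep3B sums, and their mean was 0.547 times that in Hep3B (4624 ± 1064 against 2528 ± 351 CPM, SD, n = 2), for which the exact two-sided permutation test gave p = 0.333, the smallest p that 2 libraries against 2 allow. Hep3B library 2 held the highest sum, and without Hep3B library 2 the median over the members was -0.60.

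Medians nearer 0 were found outside the members. Zinc finger genes of the same name pattern on other chromosomes had a median of -0.56 with 182 of 236 below 0. Of these namesakes 7 were called lower (2.97%, against 1.39% of all genes). Both knockout libraries were below both Hep3B libraries in 51.3% of them, against 27.4% of all genes. Between the libraries numbered 1 the median difference was -0.33 for namesakes and members alike. Between those numbered 2 it was -0.80 for namesakes and -1.47 for members. The other genes of chromosome 19 had a median of 0.09 with 374 of 804 below 0 and 10 called lower (1.24%). With GC content and length taken into account the median of the namesakes was -0.49, that of the other chromosome 19 genes turned to -0.23, with 495 of 804 below 0, and that of the members was -0.76.

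Both arms held lower members. On the p arm 57 of 64 members tested were below 0, with a median of -1.04 and 6 called (9.38%). On the q arm 135 of 159 were below 0, with a median of -0.90 and 4 called (2.52%). Over all genes 1.39% were called lower. Of the p arm calls, ZNF682, ZNF486 and ZNF730 had fewer than 10 counts in both knockout libraries and passed the filter through Hep3B. Without knockout library 1 the p arm median was -1.59, and without Hep3B library 2 the q arm median was -0.50. The p arm summed to 931 and 1342 CPM in Hep3B and to 662 and 525 CPM in the knockout. The q arm summed to 2941 and 4034 CPM in Hep3B and to 2115 and 1754 CPM in the knockout, so that on each arm both knockout sums were below both Hep3B sums.

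Of the 11 blocks with 5 members or more, 10 had a median below 0. The lowest was that of the ZNF101 to ZNF676 block (chr19:19668153-22196951), where 19 of 19 members tested were below 0 with a median of -1.92. In 16 of them (84.2%, against 27.4% of all genes) both knockout libraries were below both Hep3B libraries. In this block 5 were called (26.3%, against 1.39% of all genes called lower). Its members summed to 167 and 306 CPM in Hep3B and to 91.2 and 50.7 CPM in the knockout. The neighbouring ZNF730 to ZNF254 block (chr19:23116975-24129967) had 6 of 6 below 0, a median of -1.22 and 1 called (16.7%). These are the 2 blocks nearest the centromere on the p arm, and all their promoters searched hold CCAATCA. The medians of 3 further blocks were close to -1, at -1.05 for ZNF414 to ZNF846 on the p arm (11 of 13 below 0, none called), -1.05 for ZNF565 to ZNF573 (23 of 25, none called) and -1.09 for ZNF175 to ZNF331 (36 of 38, 3 called or 7.89%) on the q arm. Those of ZNF554 to ZNF77, ZNF264 to ZNF446, ZNF575 to ZNF180, ZNF653 to ZNF791 and ZNF628 to ZNF835 were -0.92, -0.85, -0.77, -0.74 and -0.63. The ZNF302 to ZNF792 block on the q arm (chr19:34677639-34964049) had 2 of 5 below 0 and a median of 0.046, whose sign turned with single libraries (-0.55 without knockout library 1 and -0.19 without Hep3B library 2). Without Hep3B library 2 the medians of the other 10 blocks ran from -1.27 (ZNF101 to ZNF676) to -0.42 (ZNF264 to ZNF446), with -0.52 for ZNF175 to ZNF331, and that of ZNF730 to ZNF254 was -2.43 without knockout library 1 and -0.71 without knockout library 2.

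ZNF486 (chr19:20167214-20200490) changed most clearly. It was at 15.6 and 26.6 CPM in Hep3B (275 and 505 counts) and at 0.265 and 0.330 CPM in the knockout (7 and 6 counts). The groups were far apart and the log2 fold change was -6.14 (SE 0.61, adjusted p = 0.00872), a level 70.3-fold lower. With fewer than 10 counts in both knockout libraries, it passed the filter through Hep3B, where it was high. A minimum of 10 counts in every library left ZNF486 untested. Its tested neighbours on the chromosome were ZNF682 on one side and ZNF737 on the other.

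ZNF682 (chr19:20004418-20039468) was also nearly lost, and it too passed the filter through Hep3B. It had 61 and 92 counts in Hep3B and 1 and 0 counts in the knockout (3.46 and 4.85 against 0.0379 and 0 CPM, adjusted p = 0.0177), a ratio of 187 with a 95% counting interval of 33.0 to 7415. Between ZNF682 and ZNF486 lies ZNF90, which had too few counts to be tested, with 3 and 40 in Hep3B and 0 and 0 in the knockout, at least 17.5-fold lower over the group if 3 counts are taken as the floor. On the far side of ZNF486 the picture changed at once, since ZNF737 (chr19:20537992-20565820) was at 10.1 and 13.4 CPM in Hep3B and 9.05 and 3.24 CPM in the knockout (log2 fold change -0.93, SE 0.58, adjusted p = 0.351). That bound rests on Hep3B library 2, since the 3 counts of Hep3B library 1 are at the floor. The near loss of counts was thus measured in ZNF682 and ZNF486, while ZNF737, with a promoter 86.8% identical to that of ZNF486, kept most of its counts in knockout library 1.

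Beyond ZNF737 the changes were smaller but again passed the test in places. ZNF626 (chr19:20619939-20661596) was at 11.4 and 17.8 CPM in Hep3B and 2.88 and 1.32 CPM in the knockout (log2 fold change -2.79, SE 0.58, adjusted p = 0.0399). ZNF738 (chr19:21358933-21388582) was at 7.38 and 14.8 CPM against 2.27 and 1.59 CPM (-2.51, SE 0.58, adjusted p = 0.0494). Upstream in the block, ZNF93 (chr19:19900913-19935573), a KRAB factor known for binding LINE-1 elements, was at 9.42 and 17.1 CPM against 3.03 and 2.03 CPM (-2.38, SE 0.55, adjusted p = 0.0478). For each of these 3 genes both knockout libraries were below both Hep3B libraries.

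The members next to them had log2 fold changes of -2.09 for ZNF253, -1.42 for ZNF430, -1.06 for ZNF708 and -0.67 for ZNF493, with adjusted p between 0.082 and 0.569. In order along the chromosome, 6 members from ZNF14 to ZNF486 lay below the members' own median, with 3 called, ZNF737 lay just above it, and the next 6 tested members from ZNF626 to ZNF738 lay below it again, with 2 called. All 19 tested members of the block had values of -0.67 or less. The called ZNF93, ZNF682 and ZNF486 followed each other among tested members, so ZNF93 had ZNF682 (-7.21) on its other side. ZNF626 and ZNF738 stood among uncalled neighbours with smaller differences.

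**Figure D1:**
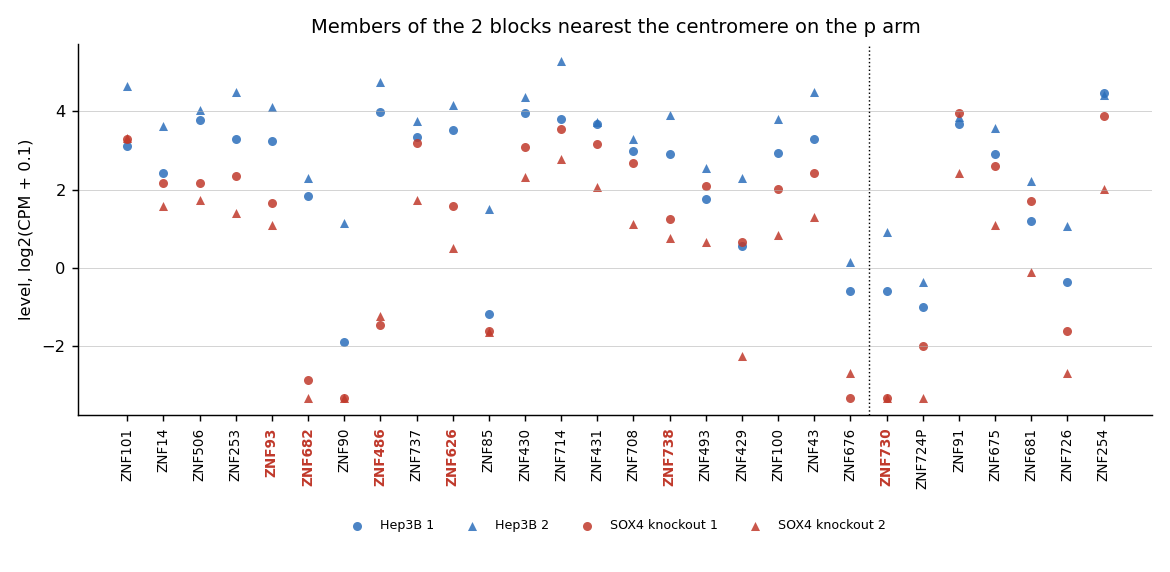
Level of each member of the ZNF101 to ZNF676 block (left of the dotted line) and the ZNF730 to ZNF254 block (right), as log2(CPM + 0.1) on the y axis in chromosomal order on the x axis, for Hep3B libraries (blue) and knockout libraries (red), circles for library 1 and triangles for library 2, called members in bold red. Knockout libraries sit well below Hep3B at ZNF682, ZNF486 and ZNF730, and knockout library 2 is below knockout library 1 at most members.

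ZNF730 (chr19:23116975-23147212), the first member of the next block, had 10 and 34 counts in Hep3B and 0 in both knockout libraries (0.568 and 1.79 against 0 and 0 CPM, adjusted p = 0.0434), at least 17.9-fold lower with the floor of 3 counts over the group. Like ZNF486 and ZNF682, ZNF730 passed the filter through Hep3B. Its neighbours differed from each other. ZNF676, the last of the previous block, had 10 and 19 counts against 0 and 1, a ratio of 35.4 with a counting interval of 5.86 to 1444 (adjusted p = 0.061). ZNF91 (chr19:23357696-23395560), a KRAB factor known for repressing SVA retrotransposons, was at 12.7 and 14.5 CPM in Hep3B and 15.5 and 5.22 CPM in the knockout (-0.39, SE 0.56, adjusted p = 0.701), with groups that overlapped.

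On the q arm the called members fell into the ZNF175 to ZNF331 block and the ZNF628 to ZNF835 block. In the first, 12 tested members in a row from ZNF614 to ZNF808 lay below the members' median, with log2 fold changes from -5.32 to -0.96, and 3 of the 12 were called. ZNF578 (chr19:52453576-52516878) was at 8.74 and 27.2 CPM in Hep3B and 0.682 and 0.165 CPM in the knockout (-5.32, SE 0.87, adjusted p = 0.0230). ZNF610 (chr19:52336245-52367123) was at 4.43 and 7.81 CPM against 0.606 and 0.0550 CPM (-4.11, SE 0.95, adjusted p = 0.0485). ZNF432 (chr19:52033424-52048820) was at 12.4 and 23.2 CPM against 3.60 and 1.81 CPM (-2.71, SE 0.57, adjusted p = 0.0408). The groups did not overlap for any of the 3, and Hep3B library 2 was the higher of the Hep3B pair each time.

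Their neighbours differed by less. ZNF528 and ZNF808, which flank ZNF578, had log2 fold changes of -1.89 (adjusted p = 0.082) and -1.26 (adjusted p = 0.172), while ZNF528-AS1, an antisense transcript inside the block that is no member, was called at -3.47. ZNF480 and ZNF880, on either side of ZNF610, had -0.97 and -1.08, and ZNF614 and ZNF841, on either side of ZNF432, had -1.35 and -1.58. None of these 6 was called. Whether the quantification kept reads of ZNF528 and its antisense transcript apart by strand is not given in the sources used here.

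**Figure D2:**
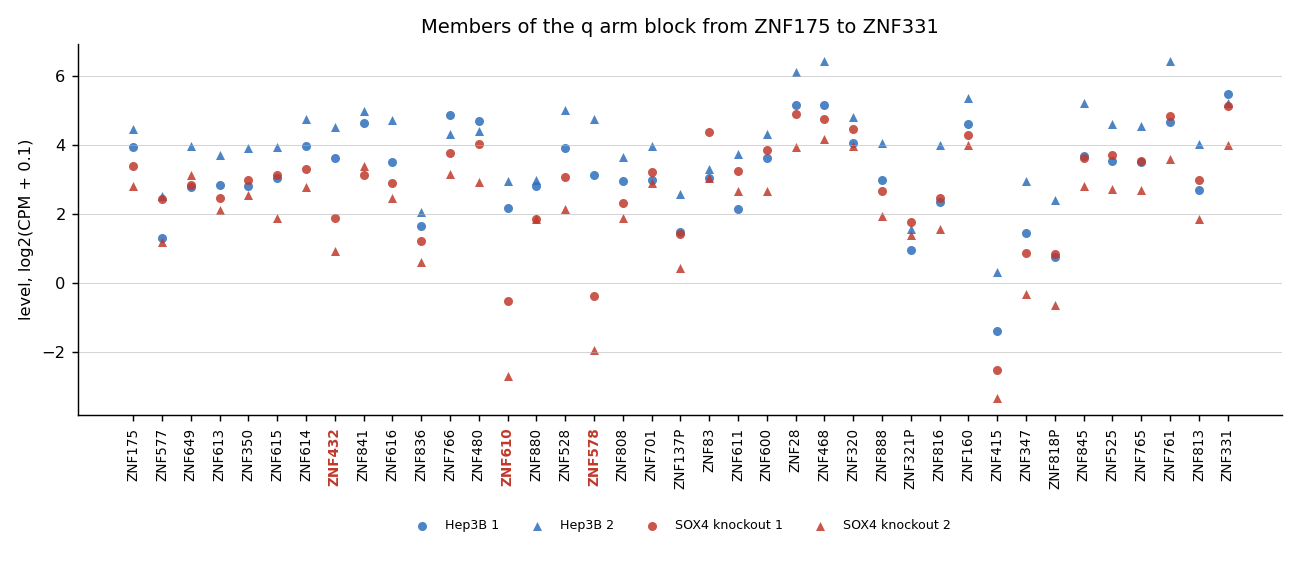
Level of each member of the ZNF175 to ZNF331 block as log2(CPM + 0.1) on the y axis, in chromosomal order on the x axis, with Hep3B libraries in blue, knockout libraries in red, circles for library 1, triangles for library 2 and called members in bold red. ZNF610 and ZNF578 drop far below their neighbours in both knockout libraries, and at most other members Hep3B library 2 lies highest and knockout library 2 lowest.

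ZNF667 (chr19:56439324-56477401) was a lone call with the smallest SE of the 10. It was at 23.6 and 23.8 CPM in Hep3B and at 4.62 and 4.84 CPM in the knockout (log2 fold change -2.32, SE 0.41, adjusted p = 0.0267), 5.01-fold lower. Its flanking members were not lower beyond their spread, as ZNF583 was at 7.78 and 5.64 against 6.66 and 5.44 CPM (-0.15, adjusted p = 0.876) and ZNF471 at 1.82 and 6.86 against 4.09 and 1.70 CPM (-0.58, adjusted p = 0.680). ZNF667-AS1, which is transcribed from the opposite strand at the same place, was at 32.9 and 20.4 against 11.8 and 8.96 CPM.

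The longest stretch below the members' median without any call ran over 9 tested members of the ZNF414 to ZNF846 block, from ZNF558 to ZNF121, with log2 fold changes from -3.32 to -0.95. ZNF560, the lowest of them, was at 1.53 and 4.96 CPM in Hep3B and 0.265 and 0.385 CPM in the knockout (adjusted p = 0.061). The longest stretch above the median was at the q arm end, 9 tested members from ZNF544 to ZNF446, with values from -0.79 to 0.78.

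Neighbours resembled each other only weakly. Of 204 pairs of neighbouring tested members in the same block, 114 (55.9%) lay on the same side of the members' median, and Spearman's rho between the log2 fold changes of neighbours was 0.27, across genes that share libraries and base composition and are not independent replicates. For 784 neighbouring pairs of other chromosome 19 genes the share was 52.8% and rho 0.12. With offsets for GC content and length the members' share was 51.0% and rho 0.19. On the p arm ZNF682 and ZNF486, next to each other among tested members, both had few counts in the knockout. ZNF676, which was not called, and ZNF730 were next in order too, but in separate blocks. These p arm genes had fewer than 10 counts in both knockout libraries and passed the filter through Hep3B. On the q arm ZNF610 and ZNF578 were each far below both tested neighbours.

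Genes with other zinc finger names inside the same spans had like values. Among 17 such genes tested, which are ZFP, ZSCAN, ZIK1 and HKR1 genes and antisense transcripts named after a member, 17 were below 0 with a median of -1.31 and 2 were called, ZNF528-AS1 (10.5 and 8.60 against 1.29 and 0.385 CPM) and ZSCAN18 (40.7 and 93.5 against 18.3 and 14.3 CPM, log2 fold change -2.04, adjusted p = 0.0495). Among 41 genes with other names in these spans 25 were below 0, the median was -0.36 and none was called. The spans differed. In that of ZNF565 to ZNF573, 12 of 12 tested genes that are no members were below 0, with a median of -1.26. Those with other names there were LINC00665 (-1.58), LOC728485 (-1.67), LINC01534 (-1.51) and LOC728752 (-0.36). In the ZNF101 to ZNF676 span 2 of 2 were below 0 (median -1.87), and in the ZNF730 to ZNF254 span 0 of 2 (median 0.25). This grouping by name was made after the values were seen.

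Members are poor in GC, and GC content moved with the libraries. The members' transcripts had a median GC content of 42.4%, against 49.6% over all genes and 60.9% over other genes of chromosome 19. Within bands of equal GC content the members were still the lower ones, with a median of -1.11 against -0.25 for other genes at 35 to 40% GC, -0.97 against -0.18 at 40 to 45% and -0.92 against -0.06 at 45 to 50%. The 20 members above 60% GC had a median of -0.08, with 11 below 0, where 2409 other genes above 60% had a median of 0.49. With both GC content and transcript length entered as offsets, these medians became -0.71 for the 20 GC-rich members (18 below 0) and -0.77 for the 202 at 60% or less, against 0.03 and 0.05 for the other genes. Over all members the median was then -0.76, with 190 of 223 below 0, and the calls were 4, namely ZNF486, ZNF682, ZNF578 and ZNF667, where 0.770% of all genes were called lower. The limit of 60% was set after the values were seen.

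Few members were higher in the knockout. The 7 with both knockout libraries above both Hep3B libraries were ZNF414, ZNF573, ZNF575, ZNF865, ZNF784, ZNF497 and ZNF446, with log2 fold changes from 0.16 to 2.31, and 6 of them have a GC content above 60%. ZNF575 (2 and 7 counts against 36 and 20, adjusted p = 0.135) was the only member with an unadjusted p below 0.05 among the higher ones.

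The members read most often were not among the called genes. Per kb of transcript, averaged over the 8 libraries of both tables, ZNF787 was highest at 120 CPM per kb, followed by ZNF358 at 70.6 and ZNF444 at 62.7. In the knockout, ZNF787 was at 187 and 173 against 98.3 and 134 CPM (-0.63, adjusted p = 0.288), ZNF358 at 88.1 and 67.3 against 86.0 and 71.4 CPM (0.019, adjusted p = 0.978) and ZNF444 at 140 and 63.9 against 102 and 82.5 CPM (-0.14, adjusted p = 0.863). Of the other well-counted members, ZNF317 was at 121 and 173 against 51.9 and 66.5 CPM (-1.31, adjusted p = 0.074), ZNF562 at 73.0 and 85.3 against 41.6 and 46.5 CPM (-0.85, adjusted p = 0.164) and ZNF146, which lacks a KRAB domain, at 168 and 195 against 87.3 and 62.0 CPM (-1.28, adjusted p = 0.075). For these last 3 the groups did not overlap, and for ZNF358 and ZNF444 they did.

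Low levels limited the test. Of the 234 members, 11 were not tested in the knockout table because of few counts (0 to 52 a library), and 5 of the 11 were lower in both knockout libraries than in both Hep3B libraries. Among those tested, ZNF560, ZNF682, ZNF486, ZNF676, ZNF730 and ZNF726 had fewer than 10 counts in both knockout libraries and 10 or more in both Hep3B libraries, so that they passed the filter through Hep3B. When a minimum of 10 counts was set for each library, 206 members had a median of -0.89 and 3 were called (ZNF432, ZNF626 and ZNF667).

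With STAT6 siRNA no change of a member was detected. Of 210 members tested, 152 were below 0 with a median of -0.14, against 53.7% below 0 and a median of -0.03 over 13554 genes. With the offsets 117 were below 0 and the median was -0.04. Without offsets, the median was -0.33 for members against -0.23 for other genes at 35 to 40% GC. It was -0.14 against -0.17 at 40 to 45% and -0.16 against -0.12 at 45 to 50%. Between libraries of the same number, 129 and 145 of 210 were below 0 with medians of -0.17 and -0.15. Leaving out a library sets unequal numbers against each other, and 38 were below 0 without control siRNA library 2 and 61 without STAT6 siRNA library 1. In the edgeR fit, which leaves the library number out, 0 were called and 0 had an unadjusted p below 0.05, where 0.103% of all genes did. DESeq2 also called 0, and 0% of all genes were called by edgeR. So few genes of any kind passed that the absence of members says little about them. Deviations of same-numbered siRNA libraries from their group means correlated at 0.873. With the number as a block in edgeR, 13 members (6.19%) had an unadjusted p below 0.05, against 11.0% of all genes. Both STAT6 siRNA libraries were below both control siRNA libraries in 9 members (4.29%, against 5.26% of all genes). The members summed to 2399 and 2632 CPM with control siRNA and to 2905 and 2476 CPM with STAT6 siRNA, with overlapping groups (means of 2516 ± 165 against 2690 ± 304 CPM, SD, n = 2, exact permutation p = 0.667).

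The 5 members ranked first by the test were ZNF726 (0.678 and 0.711 against 0.147 and 0.371 CPM, log2 fold change -1.33), ZNF610 (0.98), ZNF708 (-0.90), ZNF100 (-0.88) and ZNF43 (-0.80), each with an edgeR adjusted p of 1.00. Groups overlapped for ZNF610, ZNF708, ZNF100 and ZNF43 and not for ZNF726. ZNF486 was at 2.04 and 5.20 CPM with control siRNA and at 1.69 and 3.34 CPM with STAT6 siRNA (-0.52). The groups overlapped for ZNF486.

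In the siRNA table the level of the members went with the library number. They were higher in library 2 than in library 1, by a median of 1.03 on the log2 scale with control siRNA (171 of 210 higher) and 1.09 with STAT6 siRNA (180 of 210 higher), against 0.01 and 0.21 over all genes. In the same libraries the difference of each gene from its table mean went with GC content, with Spearman's rho across genes of 0.65 and -0.78 for control siRNA 1 and 2 and 0.81 and -0.78 for STAT6 siRNA 1 and 2. For the other table rho was -0.15 and -0.24 for Hep3B and 0.07 and 0.38 for the knockout. With the offsets, the median member in the siRNA table lay between -0.18 and 0.18 of its table mean, and for the other table at 0.07 and 0.62 in Hep3B and -0.19 and -0.55 in the knockout. The part of base composition in the results beyond these offsets was not tested.

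Across the 4 conditions the ZNF101 to ZNF676 block summed to 167 and 306 CPM in Hep3B, 91.2 and 50.7 CPM in the knockout, 29.1 and 70.9 CPM with control siRNA and 24.5 and 55.4 CPM with STAT6 siRNA. The tables were deposited and normalised separately, so levels of transfected and untransfected cells were not tested against each other. The knockout and Hep3B sums did not overlap, those of the siRNA groups did, and library 2 was the higher one in each siRNA group.

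The difference between the perturbations, knockout minus Hep3B less STAT6 siRNA minus control siRNA, was tested in a fit of all 8 libraries. Of 224 members, 0 were called by edgeR, where 0.0769% of all 14313 genes were. At an unadjusted p below 0.05 there were 21 members (9.38%), all of them lower. Of all genes 6.56% passed it in either direction and 2.43% lower. The median difference was -0.85 with 202 of 224 below 0, against -0.09 over all genes. The smallest p was that of ZNF486 (-5.72, adjusted p = 0.0579), followed by ZNF682 (adjusted p = 0.108), ZNF578 (-5.01, adjusted p = 0.154), ZNF610 (-5.19, adjusted p = 0.180) and ZNF560 (-3.69, adjusted p = 0.414). With median-of-ratios scaling 1 member was called (0.446%, against 0.0838% of all genes). With the offsets 2 were called (0.893%, against 0.398% of all genes). At an unadjusted edgeR p below 0.05 there were then 43 members, all lower (19.2%, against 7.28% of all genes lower). With the library number as a block there were 45, all lower (20.1%, against 9.01%).

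Genes of the machinery through which KRAB factors act were described from a list of corepressor and heterochromatin genes, of which 32 were tested. In the knockout 29 were below 0 with a median of -0.40, 0 were called by edgeR and 10 had an unadjusted p below 0.05, near the share of all genes (26.0%), of which 8 were lower (10.5% of all genes). TRIM28 was at 806 and 807 CPM in Hep3B and 415 and 598 CPM in the knockout (-0.67, adjusted p = 0.346). SETDB1 was at 48.1 and 62.9 against 58.8 and 67.7 CPM (0.19, adjusted p = 0.769), and CBX1, which binds methylated histones, at 159 and 156 against 77.6 and 91.7 CPM (-0.90, adjusted p = 0.140). TRIM28 and CBX1 were lower in both knockout libraries than in both Hep3B libraries, and SETDB1 overlapped. The demethylase KDM4C had the lowest log2 fold change of the list (55.3 and 32.0 against 15.4 and 15.8 CPM, -1.48, adjusted p = 0.072), and the remodeller CHD3 (1.12) and FAM208A, a subunit of the HUSH complex (1.03), were the higher ones with an unadjusted p below 0.05. With STAT6 siRNA the list had a median of -0.07, with 0 called and 0 at an unadjusted p below 0.05, where 0.103% of all genes were. Hepatocyte markers moved with the knockout in the other direction, with 9 of 11 higher in both knockout libraries and 2 called higher (APOA1 at 2.40 and TTR at 3.14). Their summed level was 13270 to 18612 CPM in Hep3B and 33831 to 56251 CPM in the knockout. Of 4 fibroblast markers 2 were tested, both higher in both knockout libraries, with sums of 3.80 to 6.70 against 15.7 to 23.3 CPM, PDGFRB called and DCN not listed. Of 4 leukocyte markers 2 were tested, CD14 and CD68, with sums over the list of 29.6 to 44.2 against 76.5 to 96.9 CPM, while CD3E was not listed and PTPRC was near 0. Of 3 endothelial markers PECAM1 alone was listed, at 0.770 CPM or less. The part of these markers in the members' levels was not tested. Fewer cells expressing a gene and less RNA per cell cannot be told apart in these bulk libraries.

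Promoters with CCAATCA outside the 2 p arm blocks stood beside medians near that of all members. For 23 tested members with the motif elsewhere the median in the knockout was -0.82 with 0 called by edgeR, and for 150 without it -0.90 with 3 called, while for 21 with it inside the 2 blocks it was -1.42 with 5 called. The calls were 2.00% of the 150 and 23.8% of the 21, where 1.39% of all genes were called lower. The motif was chosen after the values were seen, so that these medians and calls are a description.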

How the data were processed

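RNA of Hep3B cells was sequenced in 8 libraries, from stranded mRNA libraries per the labels. The submitters' processing notes name STAR, Partek and hg38, with no versions. The authors deposited expected counts per RefSeq transcript, 1 table for each comparison, not normalized. Transcripts were summed per gene and rounded, and 0 columns were left without a library. The design had assumed counts, and the same test was used. Near-identical genes share reads, so their counts are uncertain, and depths of 16266282 to 25353113 expected counts limit the low members. Intervals and floors cover counting error only.

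Each table was fitted by the quasi-likelihood functions of edgeR 4.0.16 (glmQLFit, glmQLFTest) in R 4.3.3 after filterByExpr and TMM scaling, with Benjamini-Hochberg adjustment over all genes and calls below 0.05. Steps were tested on simulated data. Differences between single libraries use log2 CPM with a prior count of 2. Alternatives were median-of-ratios scaling, no filter, a minimum of 10 counts for each library, DESeq2 1.42.0, the library number as a block, GC content and length offsets (mgcv 1.9.3, GENCODE transcripts), both together, all 8 libraries in 1 fit, block gaps of 250 and 1000 kb and leaving out each library. Counts of members below 0, and the block with the offsets for the difference, were added after seeing the data.

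Members named are those called, their nearest tested neighbours, the 5 with the smallest p where fewer than 5 were called, the 3 with the highest mean CPM on each arm, ZNF486 and genes of the corepressor and heterochromatin list. Others named were chosen after their values were seen, such as the higher members and genes inside block spans. The members and lists were chosen with earlier results of these data known.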

Additional observations from a re-analysis of the deposited data

How the results depend on the processing

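The count of members called in the knockout was 10 and moved with the processing. It was 48 with DESeq2, 4 with GC content and length offsets, 3 with at least 10 counts in every library and 6 in the fit of all 8 libraries, and leaving out 1 library gave 0 to 72. The 72 were reached without Hep3B library 1, 9 were called without Hep3B library 2, 1 without knockout library 1 (ZNF486) and 0 without knockout library 2, so that the count rests on single libraries. With either knockout library left out, calls among all genes fell too, so the low counts there were not particular to the members. The 10 called members were below 0 in 114 of 114 alternative values and past the threshold in 69 of 114, from 10 of 11 for ZNF486 down to 5 of 10 for ZNF730 and 4 of 12 each for ZNF93 and ZNF738. Counts of members called in the difference between the perturbations were 0 in the original fit, 1 with median-of-ratios scaling (0.0838% of all genes) and 2 with the offsets (0.398% of all genes). The median over the members in the knockout stayed between -1.25 and -0.60, that of the p arm between -1.59 and -0.73 and that of the q arm between -1.20 and -0.50 when 1 library was left out. With STAT6 siRNA 0 were called under all 12 alternatives run, while the median ran from -0.85 to 0.45 and the number of members below 0 from 38 (without control siRNA library 2) to 180 when 1 library was left out.

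Same-numbered libraries are not stated to be paired. Their deviations from the group means correlated at -0.085 for Hep3B and knockout and at 0.873 for the siRNA groups. With the number as a replicate block, 10 members were called in the knockout, 8 of them shared with the fit without it, 0 with STAT6 siRNA and 1 in the difference (0.678% of all genes). With STAT6 siRNA the block gave 13 members an unadjusted p below 0.05 (11.0% of all genes) and called 62 of all genes, with 153 of 210 members below 0. With the block and the offsets together 1 was called in the knockout (ZNF486), 1 in the difference (0.259% of all genes) and 0 with STAT6 siRNA. For STAT6 siRNA 6 members (2.86%) then had an unadjusted p below 0.05, against 13.3% of all genes, and 359 of all genes were called.

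Among single members named, the following changed sign. In the knockout ZNF358 (0.019) was -0.020 with DESeq2 and with median-of-ratios scaling, -0.041 in the fit of all 8 libraries, -0.59 with the offsets and -0.60 with block and offsets, and ZNF583 was 0.20 with the offsets and 0.22 with block and offsets. When 1 library was left out, ZNF358 ran from -0.17 to 0.17, ZNF444 from -0.61 to 0.47, ZNF471 from -1.33 to 0.67, ZNF583 from -0.36 to 0.042 and ZNF91 from -1.37 to 0.15. With STAT6 siRNA the same ranges were ZNF100 from -2.98 to 0.50, ZNF43 from -1.59 to 0.80, ZNF486 from -1.10 to 0.32, ZNF708 from -1.86 to 0.33 and ZNF610 from -0.51 to 1.65. The cause was not tested.

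Other block gaps left 6 of 11 blocks with the same members at 250 kb and 5 of 11 at 1000 kb, and at 250 kb the ZNF101 to ZNF676 block broke up, with medians of -2.09 for ZNF101 to ZNF486 (7 tested) and -1.53 for ZNF85 to ZNF43 (9 tested), while at 1000 kb it joined the next block with a median of -1.91. The share of neighbouring members on the same side of the median was 59.2% in the knockout for neighbours with no other gene between them.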
